A study of Homo sapiens with 2 samples.

Results

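The Hippo-YAP target genes CTGF, CYR61, ANKRD1, AMOTL1, AMOTL2, LATS2, AXL, AJUBA, TEAD1 and TEAD4 were followed in gastric cancer cells after knockdown of SET7/9, the lysine methyltransferase encoded by SETD7. The members were 10 genes given by name as known targets or feedback regulators of the pathway, and all gene probes that carried their names were taken. These were 11 probes of the 34127 gene probes, and the 10 names stood among 25940 gene names on the array. Total RNA of MKN74 and MKN45, both established gastric cancer cell lines, was extracted 48 hrs after electroporation with SET7/9 siRNA or negative control siRNA, each at 50 nM, and was measured on Agilent arrays that take 2 dyes, with 1 array for each line. On both, Cy5 marked the RNA of cells with SET7/9 siRNA and Cy3 that of control cells, so an effect of the knockdown cannot be told apart from a dye effect on a probe. All 4 RNA samples had been through electroporation with a siRNA, and untreated cells were not analysed here. There was 1 RNA sample per condition and cell line, and each value below describes these samples.

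The Hippo pathway is a kinase cascade that restrains growth of epithelia. The kinases STK3 and STK4 activate the kinases LATS1 and LATS2, which phosphorylate the coactivators YAP (gene YAP1) and TAZ (gene WWTR1) and so keep them in the cytoplasm, whereas unphosphorylated YAP and TAZ enter the nucleus and bind TEAD factors at the genes studied here. YAP is a known substrate of SET7/9, and its methylation is known to favour its retention in the cytoplasm. In the stomach the pathway is best known for its part in epithelial regeneration and in cancer.

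TEAD factors recognise the sequence GGAATG, which reads CATTCC on the opposite strand. Promoters of 300 bases, 250 before and 50 after the start of transcription, were read from RefSeq on GRCh38.p14 for 7 of the 10 genes. CYR61, TEAD1 and TEAD4 had no entry. These genes had 10 promoters, of which 6, from 6 of the 7 genes, held the sequence on either strand, against 14.0% of 35116 promoters in the whole table. Of these, 4 are printed, because CTGF and ANKRD1 hold the sequence more than once and AMOTL2 and AXL are the genes with the widest measured difference between the cell lines below. CTGF lies on the minus strand at chr6:131951323-131951622, ANKRD1 on the minus strand at chr10:90921038-90921337, AMOTL2 on the minus strand at chr3:134374398-134374697 and AXL on the plus strand at chr19:41226505-41226804. Each reads 5′ to 3′, and capitals mark GGAATG or CATTCC.
CTGF promoter: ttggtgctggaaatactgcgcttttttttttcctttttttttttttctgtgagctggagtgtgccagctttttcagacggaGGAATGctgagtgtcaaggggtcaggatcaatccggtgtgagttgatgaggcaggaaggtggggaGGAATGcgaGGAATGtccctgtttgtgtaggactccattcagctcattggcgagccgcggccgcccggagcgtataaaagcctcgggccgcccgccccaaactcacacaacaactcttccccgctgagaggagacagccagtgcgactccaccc
ANKRD1 promoter: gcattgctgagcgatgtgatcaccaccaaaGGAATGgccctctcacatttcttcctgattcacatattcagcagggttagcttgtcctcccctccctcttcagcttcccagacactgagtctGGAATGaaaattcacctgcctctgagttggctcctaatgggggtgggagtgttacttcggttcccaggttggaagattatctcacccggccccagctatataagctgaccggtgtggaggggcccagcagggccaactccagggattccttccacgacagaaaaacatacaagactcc
AMOTL2 promoter: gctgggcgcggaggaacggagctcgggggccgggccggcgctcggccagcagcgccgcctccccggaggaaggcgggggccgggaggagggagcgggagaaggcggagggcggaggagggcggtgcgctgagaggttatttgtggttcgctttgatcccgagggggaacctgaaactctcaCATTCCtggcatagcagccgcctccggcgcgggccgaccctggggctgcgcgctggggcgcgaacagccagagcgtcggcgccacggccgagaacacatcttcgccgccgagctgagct
AXL promoter: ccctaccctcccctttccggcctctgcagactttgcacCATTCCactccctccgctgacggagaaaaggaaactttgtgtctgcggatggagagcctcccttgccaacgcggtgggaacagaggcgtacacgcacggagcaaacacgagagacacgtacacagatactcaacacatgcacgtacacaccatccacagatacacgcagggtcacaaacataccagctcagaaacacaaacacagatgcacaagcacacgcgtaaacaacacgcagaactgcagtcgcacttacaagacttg
CTGF had 3 matches, which began at -169, -104 and -95 from the start of transcription, and 0.128% of all promoters had at least 3. ANKRD1 had 2, at -220 and -128, and 1.37% of all promoters had at least 2. AMOTL2 had 1 at -69, AXL 1 at -212 and AJUBA 1 at -59, and each of these genes had a second listed promoter with 0. LATS2 had 1 match at 10 and AMOTL1 had 0. The AP-1 sequence TGANTCA, read on both strands, was in 1 promoter of the members and in 7.71% of all promoters. The promoter was that of ANKRD1, where the match did not overlap GGAATG. A match is a feature of the letters and does not show that a factor was bound in these cells.

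The probes were 60 bases long and each member probe was printed once per array. The first 30 bases of the probes that separate the cell lines most, and of both AMOTL1 probes, are given with their positions on GRCh37, the build named in the array files.
AMOTL2, A_23_P166686, chr3:134074742-134074801, minus strand: ttttgttatgccaccctgtaccaggattgc
AXL, A_23_P208389, chr19:41767395-41767454, plus strand: tgcaatttcaaggttctaaccctatactgt
CYR61, A_23_P46429, chr1:86048953-86049012, plus strand: ggagcacatgttactgcttcattttggagc
ANKRD1, A_23_P161218, chr10:92672562-92672621, minus strand: gcaaacgacagactcttaatcagtaaatgt
AMOTL1, A_24_P401768, chr11:94554977-94563264, plus strand: agctccacaagtttgaaaaagaacttcaga
AMOTL1, A_33_P3271196, chr11:94609844-94609903, plus strand: ctctcgcttgctcctttcttccttaaagaa
The first AMOTL1 probe covers 8288 bases of the genome with its 60 bases and so joins more than 1 exon, whereas the second lies in 1 stretch. The array names CTGF and CYR61 are CCN2 and CCN1 in RefSeq, and the transcripts of all 11 probes were found in the RefSeq gene table. Exon and UTR annotation on GRCh37 was not used here.

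The targeted gene was checked first. The SETD7 probe A_24_P251841 had processed signals of 369 with control siRNA and 90.1 with SET7/9 siRNA in MKN74, and of 197 and 51.2 in MKN45. This gave log2 ratios of SET7/9 siRNA to control of -2.03 ± 0.28 and -1.95 ± 0.28, where the error is that of the scanner software for a spot and not a replicate SD. After normexp background correction with loess normalization the same probe was at -1.36 and -0.99. The size of the ratio in both lines thus depended on the processing. That correction adds an offset of 50 to both channels, which by itself shrinks the ratio of a dim probe. A second SETD7 probe, A_33_P3255229, was at 0.24 ± 0.22 and -0.23 ± 0.21, so the 2 probes disagreed. The transcript given for this second probe had no match in the RefSeq gene table, whereas that of A_24_P251841 matched SETD7. Whether the second probe reads the targeted mRNA was not tested. By qRT-PCR and western blot, the paper reports reduced mRNA and protein of the targeted gene in both lines. On the arrays 20674 probes in MKN74 and 22830 in MKN45 were well above background in at least 1 channel and were kept. The pooled SD of the log2 ratio over repeated spots of a probe was 0.0870 and 0.0987, and no gene spot was saturated. Epithelial markers were present in both lines: 7 of 8 listed genes were well above background in control cells of MKN74 and 8 of 8 in MKN45, and the gene not well above background in MKN74 was TFF3, a secreted gastrointestinal peptide. Of 6 fibroblast genes 1 was well above background in MKN74 and 2 in MKN45, and of 5 blood and endothelial genes 1 and 3. The summed control signal of the epithelial, fibroblast and blood lists was 451010, 206 and 92.1 in MKN74 and 408640, 82.5 and 126 in MKN45.

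No target gene measured was past 1.5-fold after SET7/9 knockdown in either cell line. In MKN74 all 11 member probes were kept, and 0 were lower and 0 higher by 1.5-fold or more, where 1.76% of all kept probes were that much lower and 3.78% that much higher. In MKN45 9 member probes were kept, those of CTGF and ANKRD1 being too dim, and the counts were again 0 lower and 0 higher, with 1.97% and 4.81% of all kept probes past the cutoff. With so few member probes, the shares of all probes would also come to under 1 member probe in each direction. The median log2 ratio over the genes was 0.15 in MKN74 (10 genes) and 0.09 in MKN45 (8 genes), beside 0.01 over 15989 genes and 0.01 over 17544 genes. In MKN74 7 of 11 kept probes and in MKN45 6 of 9 were above 0, and none of these signs turned under any other processing tried.

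The secreted matricellular proteins CTGF and CYR61 are the classical readouts of YAP activity. CYR61 had processed signals of 9777 with control and 12793 with SET7/9 siRNA in MKN74, and of 1050 and 1199 in MKN45. Both Cy5 values were above their Cy3 partners. In MKN74 the log2 ratio was 0.39 ± 0.21, the largest of the members in units of its error among those measured in both channels (1.87 times), and 0.19 ± 0.20 in MKN45. CTGF was dim in all 4 samples, with signals of 14.7 and 21.6 in MKN74 and 12.2 and 5.70 in MKN45. Only the 21.6, from MKN74 cells with SET7/9 siRNA, was well above background. Its log2 ratio of 0.56 ± 0.39 in MKN74 therefore had a control channel near background. The ratio was 0.06 after another background correction (normexp) with loess normalization, where the offset of 50 shrinks the ratio of so dim a probe. In MKN45 CTGF was not well above background in either channel and no ratio is given.

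ANKRD1, a nuclear ankyrin repeat protein, and AXL, a receptor tyrosine kinase, are further direct targets. ANKRD1 had signals of 1639 with control and 2072 with SET7/9 siRNA in MKN74, where the log2 ratio was 0.34 ± 0.21. In MKN45 its signals were 8.86 and 1.89, neither well above background. AXL had signals of 2401 and 3024 in MKN74 and 132 and 140 in MKN45. These gave log2 ratios of 0.33 ± 0.21 and 0.08 ± 0.21, so that CYR61, ANKRD1 and AXL were at like ratios in MKN74, each at under 2 times its error.

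The genes that act back on the pathway lay on both sides of 0. AMOTL1 and AMOTL2 are junctional proteins that bind YAP and hold it outside the nucleus, LATS2 is the kinase that phosphorylates it, and AJUBA is a LIM protein that binds and inhibits LATS kinases. AMOTL2 had signals of 31147 with control and 25025 with SET7/9 siRNA in MKN74, and of 728 and 824 in MKN45. The log2 ratios were -0.32 ± 0.21 and 0.18 ± 0.20, and AMOTL2 was the only gene of the 8 measured in both lines whose sign differed between them. That difference was 0.49 ± 0.29 with both scanner errors combined, and with 1 array per line it could not be tested. AMOTL1 was at 95.6 and 78.2 in MKN74 and 181 and 168 in MKN45 at the probe A_24_P401768, and at 283 and 258 and 304 and 276 at A_33_P3271196. All 4 of its log2 ratios were below 0: -0.29 ± 0.22 and -0.13 ± 0.21 in MKN74 and -0.11 ± 0.21 and -0.14 ± 0.21 in MKN45. The 2 probes thus gave like ratios within their errors. LATS2 had signals of 598 and 517 in MKN74 and 101 and 96.6 in MKN45, with log2 ratios of -0.21 ± 0.21 and -0.06 ± 0.21. AJUBA had signals of 1336 and 1447 in MKN74 and 300.0 and 317 in MKN45, with log2 ratios of 0.12 ± 0.20 and 0.08 ± 0.21.

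TEAD1 and TEAD4, the DNA-binding partners of YAP, were above 0 in both lines by less than their errors. TEAD1 had signals of 4534 and 4889 in MKN74 and 868 and 946 in MKN45, and log2 ratios of 0.11 ± 0.20 and 0.12 ± 0.20. TEAD4 had signals of 1595 and 1808 in MKN74 and 911 and 980 in MKN45, and log2 ratios of 0.18 ± 0.20 and 0.10 ± 0.20. Over the members measured in both channels the largest ratio in MKN45 was 0.934 times its error.

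**Figure D1:**
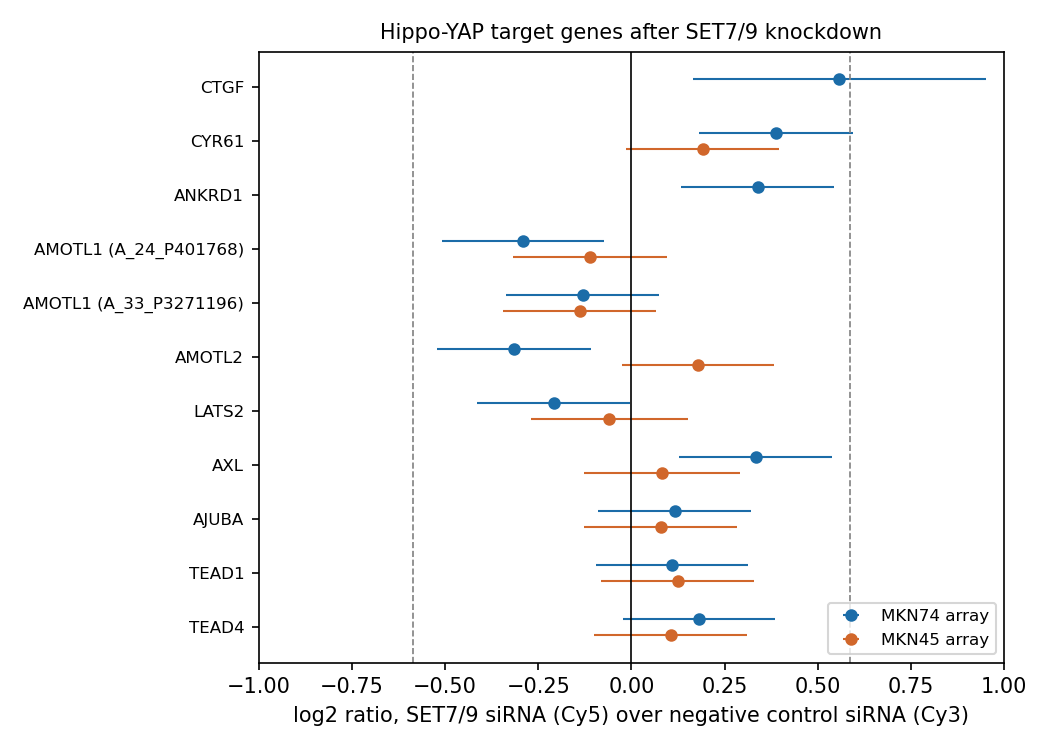
Log2 ratio of SET7/9 siRNA (Cy5) to negative control siRNA (Cy3) for each kept member probe, on the MKN74 array (blue) and the MKN45 array (orange); bars are the scanner software's error of 1 spot and dashed lines mark 1.5-fold. No point lies past a dashed line, and AMOTL2 is the gene whose points lie on opposite sides of 0.

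Whether the mean log2 ratio of a probe over both lines differed from 0 was tested by limma, with both arrays taken as replicates of the knockdown, a fit with 1 residual degree of freedom. Of 19595 probes kept on both arrays, 0 (0%) passed an adjusted p of 0.05 after Benjamini-Hochberg adjustment over all of them, and 2569 had an unadjusted p under 0.05. Of the 9 member probes 0 passed, with adjusted p from 0.375 to 0.837, and 1, CYR61, had an unadjusted p under 0.05 in limma. That 1 of 9 is near the share of all probes with such a p, 2569 of 19595. CYR61 had a mean log2 ratio of 0.29 with an SE of 0.09 and was higher in 2 of 2 arrays. After normexp background correction and loess normalization limma called 1708 probes, 553 lower and 1155 higher, and among the members CYR61 alone with an adjusted p of 0.0273. Here too 1 of 9 member probes is near the share of all probes, 1708 of 19595. That alternative changed the background correction and the normalization together, and median centring alone called 0 probes. A p that misses the threshold with 2 arrays does not show that a gene was unaffected.

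The larger contrast lay between the cell lines. In cells with negative control siRNA, most target genes had a much higher level in MKN74 than in MKN45. A level here is the log2 of the processed Cy3 signal divided by the 75th percentile of that channel, which was 508 in MKN74 and 448 in MKN45, and it is compared only within a probe. Of the 9 member probes well above background in Cy3 on both arrays, 6 were at least 2-fold higher in MKN74, or 66.7%, where 17.5% of the 17414 probes with such signals were. Only 1, or 11.1%, was at least 2-fold higher in MKN45, where 16.9% of all probes were. The median difference in level was 2.20 on the log2 scale, or 4.60-fold, over the member probes and -0.03 over all of them. With 1 control sample per line there is no test, and the line and its array cannot be told apart. The members were also chosen with earlier results of these data known, so these shares only describe the list. In these bulk samples fewer cells with a transcript and less of it per cell cannot be told apart either.

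AMOTL2 differed most among the members well above background in both lines, at 31147 in MKN74 against 728 in MKN45, a difference in level of 5.23 or 37.6-fold. The cells with SET7/9 siRNA, at 25025 and 824, differed by 4.75 or 26.9-fold. AXL was 16.0-fold higher in MKN74 in control cells and 19.2-fold with SET7/9 siRNA. CYR61 was 8.20-fold and 9.46-fold higher, so that for each of these genes both MKN74 samples lay above both MKN45 samples.

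LATS2 was 5.23-fold, TEAD1 4.60-fold and AJUBA 3.92-fold higher in control cells of MKN74, and 4.75-fold, 4.58-fold and 4.05-fold higher with SET7/9 siRNA. TEAD4 was 1.54-fold higher in MKN74, inside the 2-fold range. ANKRD1 was well above background in both samples of MKN74 and in neither of MKN45. A bound from quantile-scaled values put it at least 121-fold higher in control cells of MKN74. The bound set the MKN45 signal to that of the dimmest probe still well above background on that array. The mean log2 intensity of both channels had first been quantile-scaled between the arrays, with the log2 ratios kept. A probe brighter than that dimmest one can still fall short of well above background, so the bound is approximate. It was not computed under the other scalings. CTGF was not well above background in control cells of either line and no fold is given.

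AMOTL1 was the exception to this direction. The probe A_24_P401768 was 2.15-fold higher in MKN45, with a difference in level of -1.10, and A_33_P3271196 was 1.22-fold higher in MKN45, with a difference of -0.29. The 2 probes gave the same direction and different sizes. With quantile scaling the first was inside the 2-fold range and the count of member probes at least 2-fold higher in MKN45 was 0. The count of 6 higher in MKN74 was the same under each of the other scalings and in the Cy5 channel, although the median over all probes moved from -0.03 to -0.30 with the background-subtracted signal and to 0.13 with quantile scaling.

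**Figure D2:**
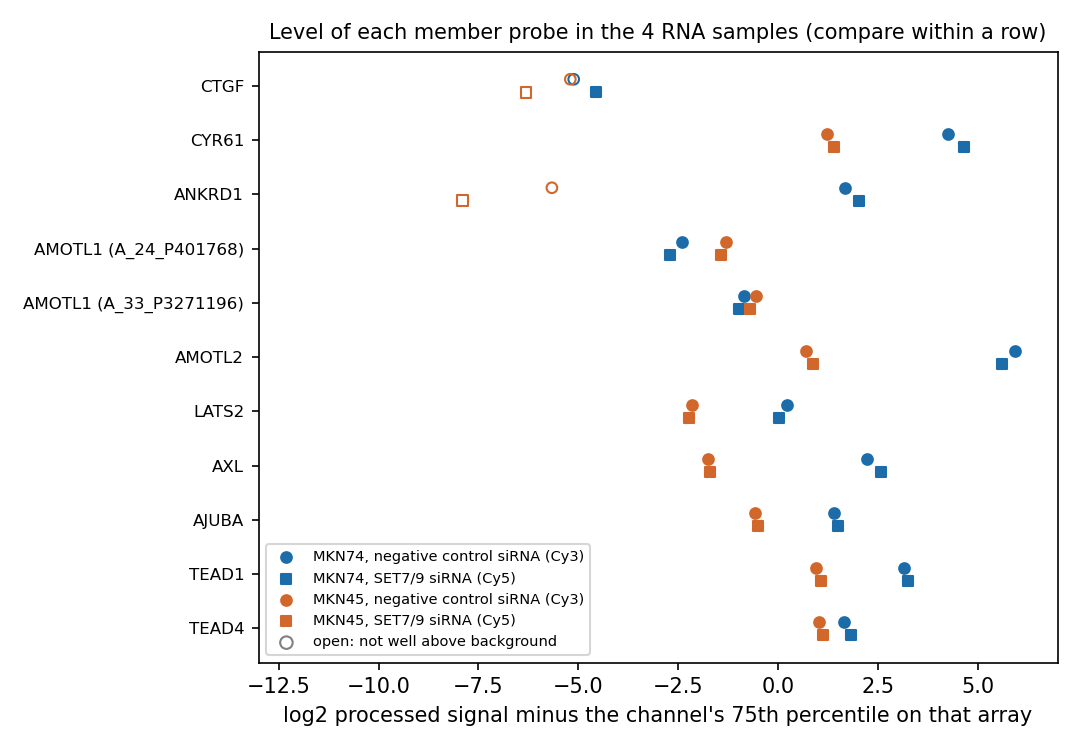
Level of each member probe in the 4 RNA samples, as log2 processed signal minus the 75th percentile of its channel, for MKN74 (blue) and MKN45 (orange) with negative control siRNA (circles) and SET7/9 siRNA (squares); open symbols are not well above background and levels are compared within a row only. For AMOTL2, AXL, CYR61, LATS2, TEAD1 and AJUBA the lines lie at least 3.92-fold apart in control cells.

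**Figure D3:**
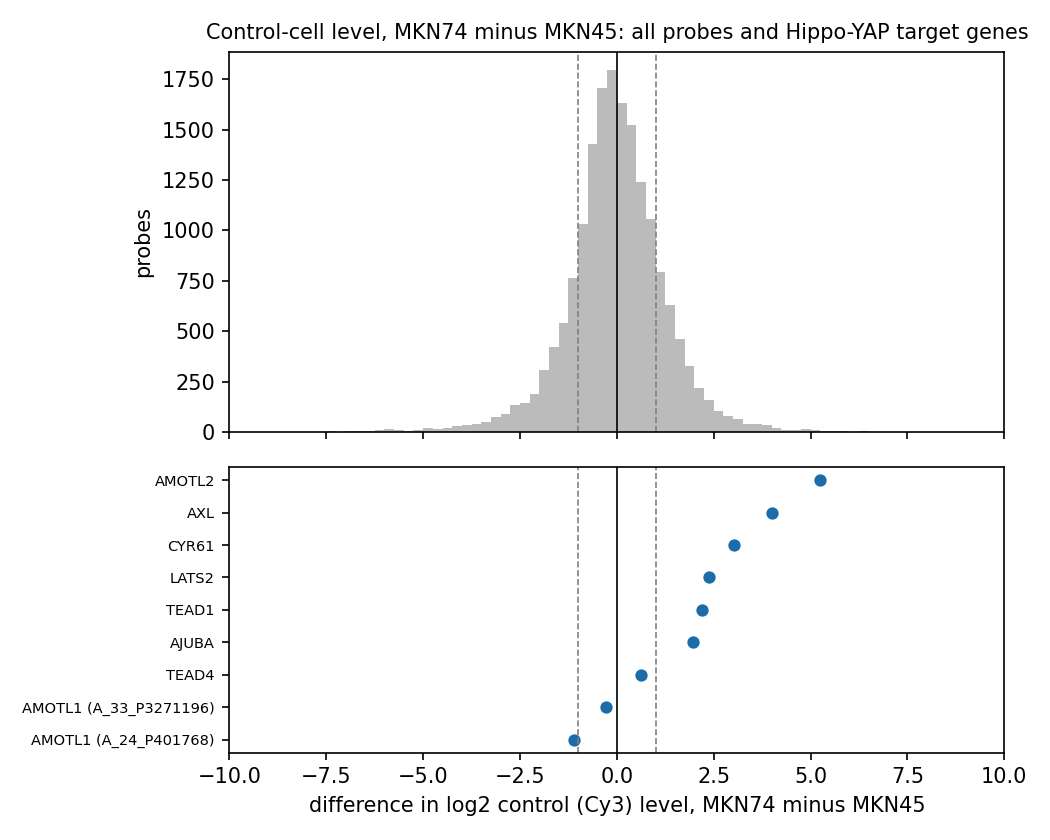
Upper panel, number of probes by their difference in log2 control (Cy3) level, MKN74 minus MKN45, over the 17414 probes well above background in both lines; lower panel, the same difference for the 9 member probes, with dashed lines at 2-fold. The probes centre on -0.03, and 6 member probes lie to the right of the upper dashed line.

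The upstream part of the pathway was read from a list of 17 genes of the Hippo core and its partners with 28 probes. The probe of YAP1, A_23_P104762 at chr11:102100584-102100643, is described because of its values, which were seen before it was chosen. It was printed 10 times per array, and its first 30 bases read as follows.
YAP1, A_23_P104762, plus strand: agctttgagttctgacatccttaatgacat
In MKN74 its control signal ran from 2353 to 2537 with a median of 2428 over the 10 spots, and with SET7/9 siRNA from 2214 to 2384. In MKN45 the control signal ran from 3.78 to 16.3 with a median of 8.05, and 0 of 10 spots were well above background. With SET7/9 siRNA in MKN45 the signal ran from 9.01 to 16.6 and 9 of 10 spots were well above background. No spot of one line came near the range of the other. By the same approximate bound as for ANKRD1, YAP1 was at least 179-fold higher in control cells of MKN74. The log2 ratio after SET7/9 knockdown was -0.08 with an SD over spots of 0.04 in MKN74, and 0.60 with an SD of 0.71 in MKN45, where the control channel had only background.

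WWTR1, which encodes the YAP paralogue TAZ, stood the other way and was likewise chosen after its values were seen. The probe A_23_P29769 had signals of 68.6 with control and 95.2 with SET7/9 siRNA in MKN74 and of 433 and 511 in MKN45. It was 7.18-fold higher in control cells of MKN45, a difference in level of -2.84, and was the only one of the 23 probes of this list measured in both lines that was at least 2-fold higher in MKN45. A further WWTR1 probe was near background. After knockdown the log2 ratios of A_23_P29769 were 0.47 ± 0.23 in MKN74 and 0.24 ± 0.21 in MKN45.

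Of these 23 probes 6 (26.1%) were at least 2-fold higher in MKN74, where 17.5% of all probes were, and 16 lay within 2-fold, with a median difference in level of 0.49. The count of 6 was 4 with the background-subtracted signal, without STK4 and TEAD3, and 9 with quantile scaling, and with the background-subtracted signal a LATS1 probe joined WWTR1 on the side of MKN45. The 6 were single probes of the kinases STK3 (10.5-fold) and STK4 (2.06-fold), of the scaffold NF2 (3.25-fold) and of TEAD3 (2.38-fold), and 2 probes of the kinase cofactor MOB1B (2.49-fold and 2.83-fold), and they too were named after their values were seen. STK3, STK4, NF2 and MOB1B each had another probe within 2-fold, at 1.53-fold for STK3, 1.39-fold for STK4, 1.23-fold for NF2 and 1.40-fold for MOB1B. Their size thus differed between probes of a gene.

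After SET7/9 knockdown 1 probe of the Hippo list with both channels well above background was past 1.5-fold, among 25 kept probes in each line, where 1.76% of all kept probes in MKN74 were that much lower. It belonged to AMOT, the angiomotin that binds YAP, with signals of 87.5 and 57.0 in MKN74 and 55.0 and 61.8 in MKN45. The log2 ratios were -0.62 ± 0.23 and 0.17 ± 0.23, and 2 more AMOT probes were near background in both lines. In MKN45 LATS1 (0.88 ± 0.45) and YAP1 (0.60) were past the cutoff with a control channel not well above background. They were 2 of 25 kept probes, where 4.81% of all kept probes in MKN45 were that much higher. After normexp and loess AMOT was at -0.35 in MKN74, and 0 probes of the list were past the cutoff in either line. The offset of 50 in that correction shrinks ratios at signals this low, so this does not test the calls.

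A list of 15 other genes known as YAP and TEAD targets, with 20 probes, was split between the lines. Of 12 probes well above background in Cy3 on both arrays 4 (33.3%) were at least 2-fold higher in MKN74 and 4 (33.3%) at least 2-fold higher in MKN45, where 17.5% and 16.9% of all probes were, with a median difference in level of 0.18. NUAK2, a kinase induced by YAP, had signals of 3132 in control cells of MKN74 and 60.0 in MKN45, or 46.0-fold. FJX1 was 5.76-fold, ASAP1 3.47-fold and ARHGEF17 2.56-fold higher in MKN74. F3, the tissue factor that starts blood coagulation, had signals of 2926 and 5541 and was 2.15-fold higher in MKN45, as were both probes of DOCK5 (4.24-fold and 4.67-fold) and 1 of NT5E (2.09-fold). These genes were named after their values were seen. The direction seen in most of the 10 members was thus not that of the other targets as a group, and the difference between the lists was not tested.

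After knockdown 0 of 14 kept probes of this list in MKN74 were past 1.5-fold, where 1.76% of all kept were lower and 3.78% higher. In MKN45 3 of 16 were past 1.5-fold, and the 3 were higher, where 4.81% of all kept probes in MKN45 were. IGFBP3, which binds insulin-like growth factors, had a control signal with a median of 22.5 over 10 spots in MKN45 and a median of 43.4 with SET7/9 siRNA, and a log2 ratio of 0.85 with an SD over spots of 0.32. FOXF2, a forkhead transcription factor, had medians of 19.4 and 25.9 and a log2 ratio of 0.59 with an SD over spots of 0.44, and its control signal was well above background on 5 of 10 spots. Neither was well above background in MKN74. CCDC80 was at 1.48 ± 0.68 in MKN45 with a control channel not well above background. After normexp and loess IGFBP3 was at 0.24, FOXF2 at 0.08 and CCDC80 at 0.19, so that 0 of the 3 were past the cutoff. The offset of 50 in that correction shrinks ratios at signals this low, so the loss of these calls does not test them. In the deposited table of log2 ratios FOXF2 was at 0.25.

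**Figure D4:**
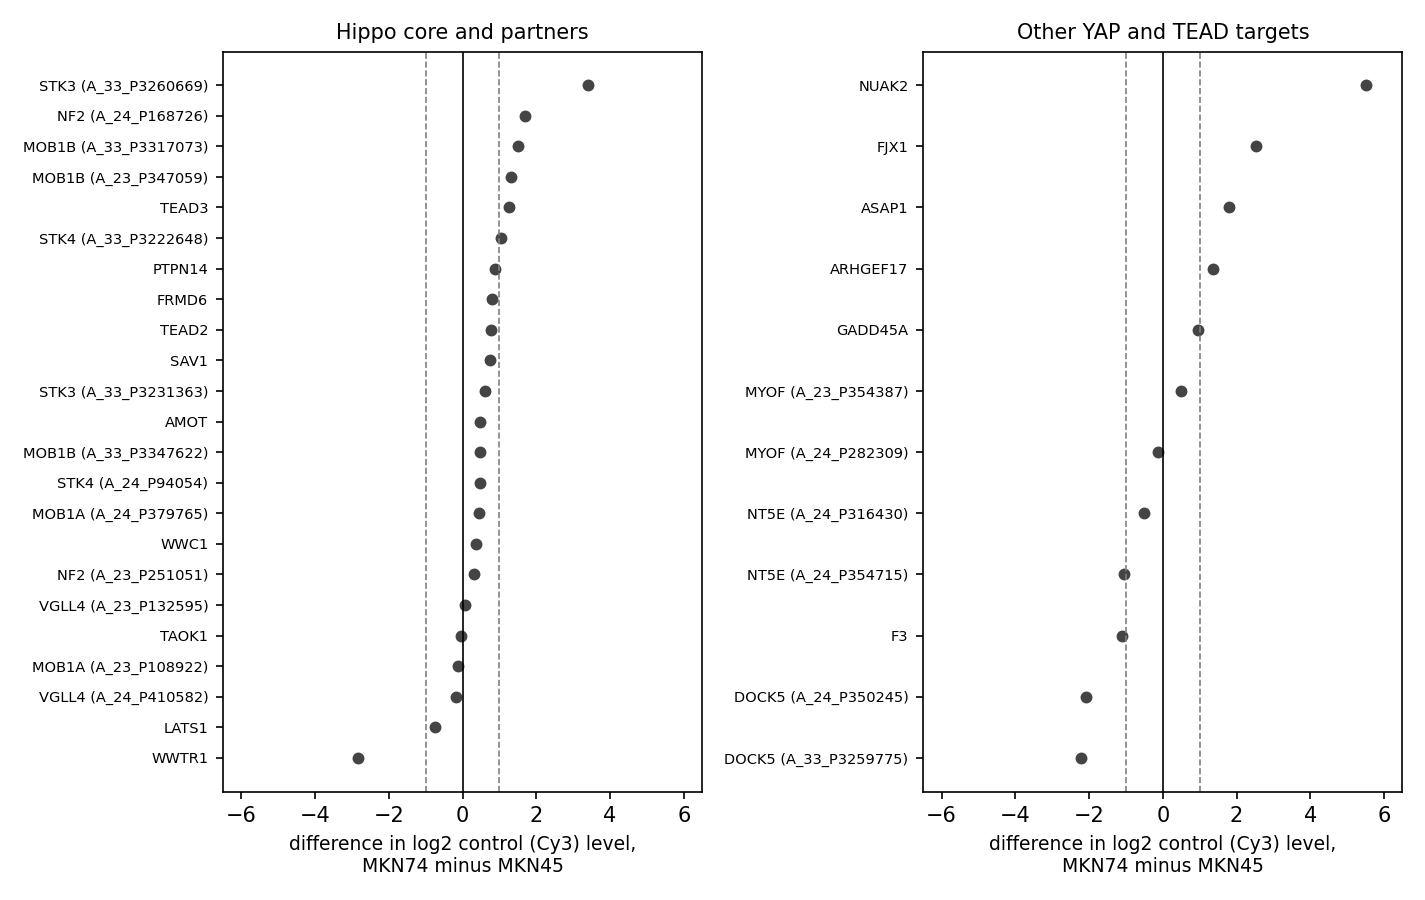
Difference in log2 control (Cy3) level, MKN74 minus MKN45, for the 23 probes of the Hippo core and partners (left) and the 12 probes of other YAP and TEAD targets (right) well above background in both lines; dashed lines mark 2-fold. On the left 6 probes lie beyond 2-fold towards MKN74 and WWTR1 alone beyond it towards MKN45, and on the right 4 lie on each side; YAP1 is not drawn because its control signal in MKN45 was not well above background.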

How the data were processed

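Each array compared SET7/9 siRNA (Cy5) with negative control siRNA (Cy3) in 1 cell line. The authors deposited Agilent Feature Extraction 10.7.3.1 output, in which spot intensity on a linear scale was background-subtracted and dye-normalized, with a log10 ratio of Cy5 over Cy3 and its error. A second table deposited by the authors held log2 ratios. Here log2 ratios were computed from the log10 ratio, without control or outlier spots, as the mean over a probe's spots. Kept probes had 1 or both channels well above background on 50% or more of their spots. The 1.5-fold cutoff is the study's. The common response was fitted with limma 3.58.1 in R 4.3.3, and other steps used Python 3.11.15 with pandas 2.3.3. The limma fit was tested on simulated data with shifts larger than the log2 ratio of any kept member probe. Smaller shifts were not simulated. Which SET7/9 siRNA was hybridised is not given in the sources used here.

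The genes set to be named were all 10 members, SETD7, and genes of the wider lists past 1.5-fold with both channels well above background. Other genes of the wider lists were named outside this rule, most of them after their values were seen. The members and lists were chosen with earlier results of these data known. A bound on a fold, for a probe not well above background in 1 line, used Aquantile. That method quantile-scales the mean log2 intensity of both channels between the arrays and leaves the log2 ratio as it was. Alternatives were normexp with an offset of 50 and loess, median centring, the filters, outlier spots, the deposited table, a 2-fold cutoff, the mean over a gene's probes and, for levels, other scalings. The Cy5 channel was added after seeing the data. The number of arrays limits the precision.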

Additional observations from a re-analysis of the deposited data

Results flagged for a closer look

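AMOTL2 lay on opposite sides of 0 in the 2 lines after SET7/9 knockdown. Its log2 ratio in MKN45 minus that in MKN74 was 0.49, with a combined scanner error of 0.29, and the difference was not tested because there was 1 array per line.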

How the results depend on the processing

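With no filter on dim probes, 2 member probes, ANKRD1 and CTGF, were at least 1.5-fold lower in MKN45, where neither channel was well above background. The common response of both lines had 1708 probes called by limma after normexp and loess and 2 with both channels well above background, against 0 as reported. With Aquantile 0 member probes were at least 2-fold higher in control cells of MKN45, against 1. The other counts, and both median log2 ratios of the members, stayed within 1.5 times or the spread under each alternative run. Of the log2 ratios of single member probes 117 of 118 moved by less than the scanner error, the exception being CTGF in MKN74. This is no measure of robustness. The filters and outlier spots left these ratios as they were, the deposited table rounds them, and median centring shifts all alike by little. Of the members' control level differences 39 of 45 moved by less than the spread, the combined scanner error of the log2 ratios. CYR61, both AMOTL1 probes, AMOTL2 and TEAD1 moved further with the background-subtracted signal, and AMOTL2 also in the Cy5 channel. No ratio or level difference among these turned its direction. Outside the members, normexp and loess ended each 1.5-fold call in both wider lists, as given with those calls. These calls were on dim probes, whose ratios the offset of 50 shrinks by itself. Leaving out 1 array leaves no residual degree of freedom. No replicate block could be fitted because each cell line had 1 array, and the limma fit rests on ratios of paired samples within each array. Dim signals limit CTGF in both lines and ANKRD1 and YAP1 in MKN45.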
